A study of Mus musculus with 10 samples.

Results

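The natriuretic peptide system of the heart was followed through 7 genes, picked by their symbols in a table of counts for 57185 genes. They are the peptide genes *Nppa* and *Nppb*, the processing enzyme genes *Corin* and *Furin*, and the receptor genes *Npr1*, *Npr2* and *Npr3*. All 7 passed the filter on low counts, which left 13451 genes for testing. Ventricular tissue from the apex of male hearts, labelled as left ventricle, gave the RNA and was taken 1 month after a single intraperitoneal dose of 100 mg/kg tamoxifen at 10 weeks of age. The labels give the age at collection as 16 weeks, which is more than 1 month after a dose at 10 weeks, so the exact interval is not settled.

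The control group, MLPKO, consisted of 5 mice that lacked muscle LIM protein (MLP, the product of *Csrp3*) and carried floxed RAD alleles (MLPKO-RADfloxed/floxed). The other group, MLPKO-cRADΔ/Δ, written MLPKO-cRADKO in the sample labels, consisted of 5 mice of the same genotype with the MYH6_MerCreMer transgene in addition. This transgene is a Cre recombinase driven by a cardiomyocyte promoter, and tamoxifen activates it to delete RAD, the product of *Rrad*, in cardiomyocytes. Both groups therefore shared the MLP knockout, the floxed alleles and the tamoxifen, and no MLP-positive or Cre-only mice were analysed here, so Cre and the loss of RAD cannot be told apart. Mice without MLP develop dilated cardiomyopathy, and the comparison asks how these hearts differed when RAD was removed from cardiomyocytes after disease onset.

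Atrial natriuretic peptide (ANP) and B-type natriuretic peptide (BNP) are hormones that cardiac muscle releases when it is stretched. They lower blood pressure and blood volume, and their genes are low in most adult ventricular muscle and rise in heart failure. Corin, a membrane protease of cardiomyocytes, cleaves pro-ANP, and furin, a protease of the Golgi, cleaves pro-BNP. NPR-A, the product of *Npr1*, binds ANP and BNP and makes cyclic GMP, NPR-B, the product of *Npr2*, does so for C-type natriuretic peptide, and NPR-C, the product of *Npr3*, mainly removes the peptides from circulation.

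Libraries held 33457406 to 49965101 counts. Values are CPM, the counts of a gene scaled to a fixed library total after TMM normalization. *Rrad* had 140 to 282 CPM in MLPKO and 135 to 202 CPM in MLPKO-cRADΔ/Δ, and *Csrp3* had 1009 to 3261 CPM and 691 to 1177 CPM. The log2 fold change was -0.38 for *Rrad* (edgeR adjusted p = 0.29, DESeq2 adjusted p = 0.207). For *Csrp3* it was -1.08 (edgeR adjusted p = 0.0666, DESeq2 adjusted p = 0.0361). The count of a whole gene covers exons that may lie outside the deleted part and all cell types of the tissue, so it does not check the genotype. MLPKO mouse 2 stood farthest out on the first principal component (35.3% of the variance), and MLPKO-cRADΔ/Δ mouse 3 alone had clear counts of adipocyte genes, with 216 counts of *Adipoq* against at most 6 in the others. Values without these 2 mice are given for *Nppa*, *Nppb*, *Npr3* and *Corin*. In whole tissue, fewer cells of a type and less RNA per cell cannot be told apart.

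*Nppa* and *Nppb* are neighbours. On GRCm39, *Nppb* lies at chr4:148069859-148071662 and *Nppa* at chr4:148085091-148086583, both protein coding and on the plus strand, with 13428 bases between them. Because the levels of both genes went together across the mice, as described below for each mouse, the sequence before their RefSeq starts is shown. It was taken from a RefSeq promoter table of GRCm38.p6 and placed on GRCm39 by an exact match. In the 250 bases before the RefSeq start, both strands were searched for the core that GATA factors bind (GATAA), the core that the cardiac factor NKX2-5 binds (AAGTG), the element that TEAD factors bind (CATTCC) and the TATA box (TATAAA). Matches are in capitals, on the minus strand as their reverse complement, and no match overlapped another. The first sequence is the part of the *Nppa* window before the first exon of GENCODE M39, and the other 2 are 30-base stretches around further groups of matches. The *Nppa* stretch lies in that first exon. The *Nppb* stretch lies in the first exon of transcripts that start at position 148070245, but another annotated transcript starts at the gene start given above, so that the whole *Nppb* window is inside the annotated gene.
Nppa, chr4:148084929-148085090, plus strand: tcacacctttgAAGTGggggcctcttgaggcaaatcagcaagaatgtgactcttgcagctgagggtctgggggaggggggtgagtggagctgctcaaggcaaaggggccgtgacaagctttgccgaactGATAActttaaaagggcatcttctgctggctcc
Nppa, chr4:148085096-148085125, plus strand: ccatcgctTTATCgctgcAAGTGacagaat
Nppb, chr4:148070250-148070279, plus strand: caGGAATGcagctGATAAatcagaGATAAc

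The *Nppa* window held GATA matches 121 and 75 bases before the start, the latter on the minus strand, NKX2-5 matches 239 and 65 bases before it, and a TATA box match 9 bases before it. The *Nppb* window held GATA matches 94 and 83 bases before the start, a TEAD match on the minus strand 105 bases before it, and a TATA box match 31 bases before it. Each gene thus had a pair of GATA matches. Of the 32851 promoter windows of the same length in the table, 22.6% held the GATA letters at least once and 4.28% at least 2 times, while 40.7% held those of NKX2-5, 12.6% those of TEAD factors and 12.4% those of the TATA box. The GATA letters and the TATA box were together in 4.16% of windows. None of the other 5 genes had a GATA match in its window, and *Furin* had an NKX2-5 and a TATA box match. These matches describe the letters of the windows only.

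The 7 genes spanned a wide range of levels. Per kilobase of exon, MLPKO hearts had 1082 ± 983 CPM (SD, n = 5) of *Nppa* and 596 ± 457 CPM of *Nppb*, then 30.1 ± 5.30 CPM of *Corin*, 10.8 ± 1.78 CPM of *Furin*, 6.57 ± 0.48 CPM of *Npr2*, 4.41 ± 1.88 CPM of *Npr3* and 2.03 ± 0.14 CPM of *Npr1*. In MLPKO-cRADΔ/Δ hearts the levels per kilobase were 294 ± 138 CPM of *Nppb*, 261 ± 139 CPM of *Nppa*, 27.9 ± 4.60 CPM of *Corin*, 10.5 ± 0.56 CPM of *Furin*, 5.76 ± 0.45 CPM of *Npr2*, 2.96 ± 0.48 CPM of *Npr3* and 2.20 ± 0.20 CPM of *Npr1* (SD, n = 5). The peptide genes overlapped each other in both genotypes, as did *Npr2* and *Npr3* in MLPKO and *Npr3* and *Npr1* in MLPKO-cRADΔ/Δ, and no other neighbours in the order overlapped. By its mean, the signalling receptor for ANP and BNP was the lowest of the 7 per length in both genotypes. Of the 1019 exon bases of *Nppa*, 615 are shared with *Gm13054*, a noncoding gene on the opposite strand, and the strand setting of the counting is not given in the sources used here. *Gm13054* itself had 3 to 94 counts. Over the 404 unshared bases alone, the mean *Nppa* level would be 2728 CPM per kilobase in MLPKO and 659 in MLPKO-cRADΔ/Δ. For comparison, *Tagln*, a smooth muscle gene that also has an overlapping gene on the opposite strand, had only 2 to 13 counts. How much of *Nppa* went uncounted was not tested, and *Nppb* has no overlapping gene.

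By edgeR (quasi-likelihood test with Benjamini-Hochberg adjustment over all genes tested, n = 5 mice per genotype), none of the 7 genes was called, that is, reached an adjusted p under 0.05, where 2.74% of all genes were. Over all genes, 1.8% were called lower and 0.944% higher in MLPKO-cRADΔ/Δ, that is 242 and 127 genes, but 168 and 182 with scaling by library size alone and 207 and 175 with upper quartile factors. DESeq2, the tool of the study's methods, also called none of the 7 here, where it called 9.65% of all genes. The study itself names *Nppa* and *Nppb* among the genes that were lower after RAD knockout. Its list of lower genes shared with published data on mice with and without MLP was picked by fold change. The groups overlapped in every one of the 7, where 6.62% of all genes did not overlap. Without adjustment, *Nppa*, *Npr2* and *Npr3* had a p under 0.05, which makes 3 of 7 where 21.6% of all genes passed. The log2 fold change, MLPKO-cRADΔ/Δ minus MLPKO, was below 0 in 6 of the 7, where it was so in 47.9% of all genes, and at or below -1 in *Nppa* and *Nppb*, where it was so in 1.08%. The median was -0.19 over the 7 and 0.01 over all genes. The largest values belonged to the peptide genes and *Npr3*, and the same genes had the widest intervals.

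**Figure D1:**
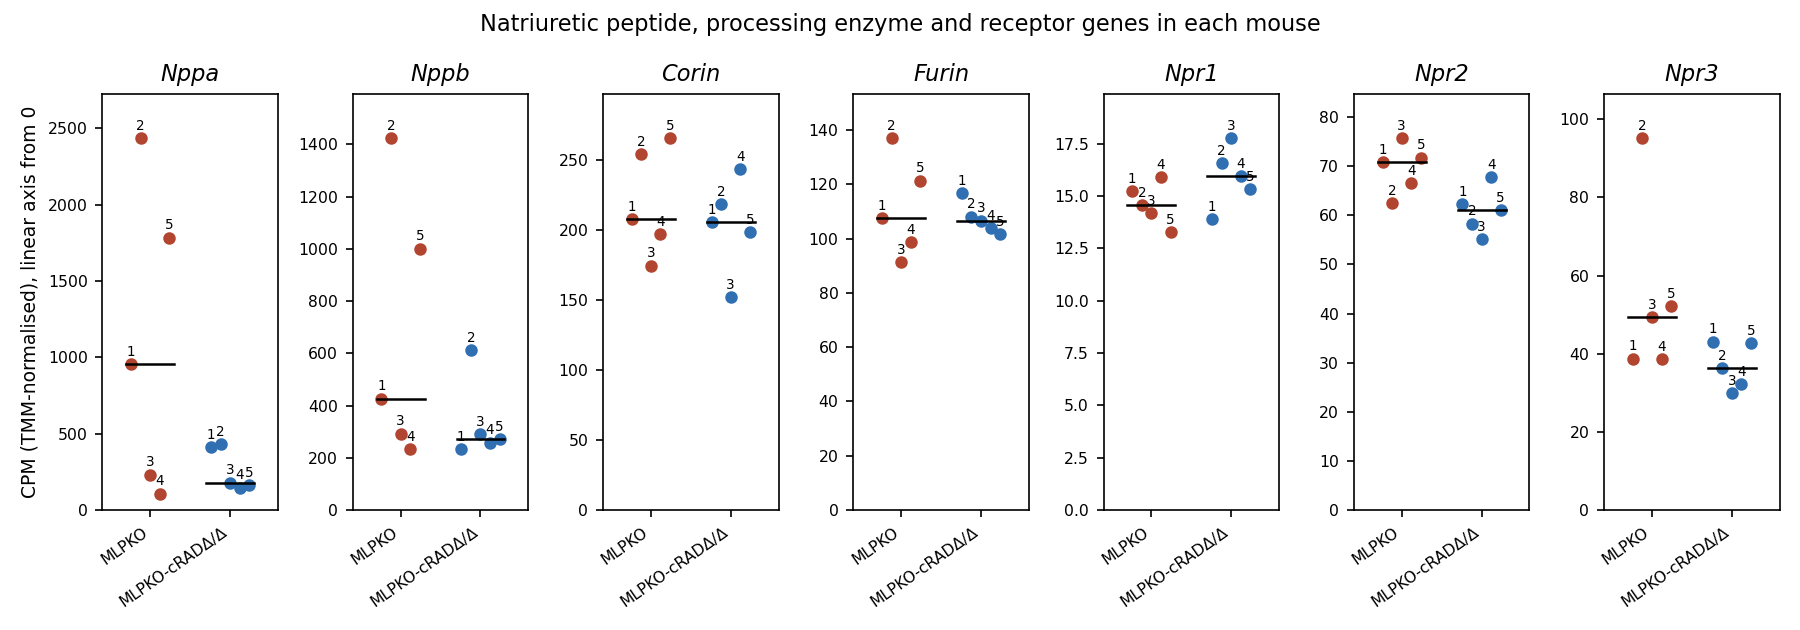
CPM after TMM normalization of the 7 genes in each mouse, on linear axes that start at 0, with MLPKO in red and MLPKO-cRADΔ/Δ in blue. Points are mice with their number and the bar is the median of 5 mice. *Nppa* and *Nppb* spread from 106 to 2435 CPM and from 232 to 1424 CPM over the 10 mice, while *Npr1* stayed between 13.3 and 17.8 CPM.

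*Nppa*, which encodes ANP, had 955, 2435, 230, 106 and 1784 CPM in MLPKO mice 1 to 5 and 413, 429, 179, 146 and 164 CPM in MLPKO-cRADΔ/Δ mice 1 to 5. MLPKO mice 1, 2 and 5 were above every MLPKO-cRADΔ/Δ mouse, MLPKO mouse 4 was the lowest of all 10, and MLPKO mouse 3 lay among the MLPKO-cRADΔ/Δ mice. The mean of 266 ± 142 CPM (SD, n = 5) in MLPKO-cRADΔ/Δ was 24.1% of the mean of 1102 ± 1002 CPM in MLPKO. The log2 fold change was -2.05 (standard error 0.72, 95% interval -3.61 to -0.49, edgeR adjusted p = 0.124), and DESeq2 gave an adjusted p of 0.0699. The highest mouse had 23.0 times the CPM of the lowest. Within MLPKO the SD of log2 CPM was 1.95, which only 13 of the 13451 genes exceeded (0.0966%), and within MLPKO-cRADΔ/Δ it was 0.76, which 2.71% of genes exceeded. *Nppa* was thus not called with all 10 mice. Among fits that each dropped 1 mouse, only the removal of MLPKO mouse 4 led to a call (-2.34, edgeR adjusted p = 0.0389). That fit called 826 of all genes, where 369 were called with all mice, so the added calls were not particular to *Nppa*. Dropping MLPKO mouse 2 instead left *Nppa* at -1.53 (edgeR adjusted p = 0.218).

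*Nppb*, which encodes BNP, had 426, 1424, 292, 232 and 1001 CPM in MLPKO mice 1 to 5 and 234, 611, 291, 258 and 271 CPM in MLPKO-cRADΔ/Δ mice 1 to 5. The same MLPKO mice, 2 and 5, were the highest of all, but MLPKO-cRADΔ/Δ mouse 2 was the third, above MLPKO mouse 1, and the lowest values of the groups were nearly equal. The mean was 675 ± 518 CPM (SD, n = 5) in MLPKO and 333 ± 157 CPM in MLPKO-cRADΔ/Δ, 49.3% of it, a log2 fold change of -1.02 (standard error 0.48, 95% interval -2.06 to 0.02, edgeR adjusted p = 0.241). The SD of log2 CPM within MLPKO was 1.13, which 1.37% of genes exceeded. Dropping MLPKO mouse 2 left a value of -0.55 (edgeR adjusted p = 0.478). Without both MLPKO mouse 2 and MLPKO-cRADΔ/Δ mouse 3 it was -0.50 for *Nppb* and -1.41 for *Nppa*.

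Both peptide genes together took 0.0334% to 0.364% of all counts in MLPKO and 0.0406% to 0.103% in MLPKO-cRADΔ/Δ. The difference of the means was -0.109 percentage points (two-sided exact permutation test, p = 0.135, adjusted p = 0.202 over 3 measures), and -0.0602 without MLPKO mouse 2. The share was above 0.13% in MLPKO mice 1, 2 and 5 and in no other mouse. The balance between the peptides also varied. The log2 ratio of *Nppa* to *Nppb* was 1.17, 0.77, -0.34, -1.13 and 0.83 in MLPKO mice 1 to 5 and 0.82, -0.51, -0.71, -0.82 and -0.73 in MLPKO-cRADΔ/Δ mice 1 to 5. *Nppa* CPM was above *Nppb* CPM in 3 MLPKO mice and in MLPKO-cRADΔ/Δ mouse 1 only, and the difference of the mean log2 ratios was -0.65 (exact permutation p = 0.278, adjusted p = 0.278). It was -0.422 without MLPKO mouse 1 and -0.996 without MLPKO mouse 4. MLPKO-cRADΔ/Δ mouse 1 also had the highest counts of the atrial genes *Myl7* (152, at most 59 elsewhere), *Myl4* (655, at most 240 elsewhere) and *Sln* (12, at most 6 elsewhere). The other atrial markers had their highest counts in MLPKO mice, *Dkk3* in mouse 2 (482), *Stard10* in mouse 3 (1496) and *Bmp10* in mouse 1 (4). The summed level of the 6 atrial markers was 28.6 to 37.8 CPM in MLPKO and 30.9 to 51.7 CPM in MLPKO-cRADΔ/Δ, with *Bmp10* at 0 to 4 counts in all mice, and its part in these ratios was not tested.

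**Figure D2:**
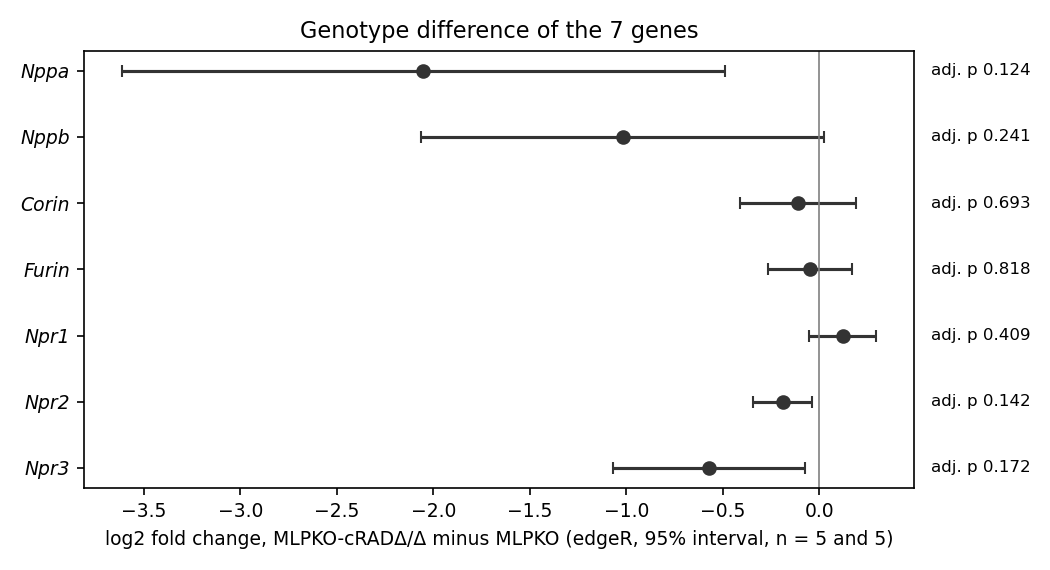
Log2 fold change (MLPKO-cRADΔ/Δ minus MLPKO) of the 7 genes with its 95% interval from the edgeR fit, and the p adjusted over all 13451 genes at the right. *Nppa* has the lowest value, -2.05, and the widest interval, and no adjusted p is under 0.05.

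Among the processing enzymes, *Corin* (chr5:72457290-72661924, minus strand) had 207, 254, 174, 197 and 265 CPM in MLPKO mice 1 to 5 and 205, 218, 152, 243 and 198 CPM in MLPKO-cRADΔ/Δ mice 1 to 5. Its log2 fold change was -0.11 (standard error 0.14, 95% interval -0.41 to 0.19, edgeR adjusted p = 0.693). *Furin* (chr7:80038333-80055184, minus strand) had 108, 137, 91.4, 98.8 and 121 CPM in MLPKO and 117, 108, 107, 104 and 102 CPM in MLPKO-cRADΔ/Δ, with a log2 fold change of -0.05 (standard error 0.10, 95% interval -0.27 to 0.17, edgeR adjusted p = 0.818). The groups lay over each other for both enzymes, and neither interval reached a log2 difference of 0.5 in size. The sign of the *Furin* value turned to 0.01 when only library size was used for scaling and to 0.04 without MLPKO mouse 2, and that of *Corin* turned to 0.04 without MLPKO mouse 2 and MLPKO-cRADΔ/Δ mouse 3.

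Among the receptors, *Npr3* (chr15:11839982-11907373, minus strand) had the largest difference. It had 38.7, 95.2, 49.4, 38.5 and 52.1 CPM in MLPKO mice 1 to 5 and 43.0, 36.2, 29.9, 32.2 and 42.6 CPM in MLPKO-cRADΔ/Δ mice 1 to 5. MLPKO mouse 2 was far above the rest, and 3 of the 5 MLPKO-cRADΔ/Δ mice were below every MLPKO mouse. The log2 fold change was -0.57 (standard error 0.23, 95% interval -1.07 to -0.07, edgeR adjusted p = 0.172), and it was -0.28 without MLPKO mouse 2 (adjusted p = 0.244) and -0.21 without that mouse and MLPKO-cRADΔ/Δ mouse 3 (adjusted p = 0.4). *Npr2* (chr4:43631339-43651436, plus strand) had 70.8, 62.5, 75.7, 66.5 and 71.8 CPM in MLPKO and 62.3, 58.3, 55.1, 67.7 and 61.0 CPM in MLPKO-cRADΔ/Δ. Here 4 of the 5 MLPKO-cRADΔ/Δ mice were below every MLPKO mouse, but the difference was small, with a log2 fold change of -0.19 (standard error 0.07, 95% interval -0.34 to -0.04, edgeR adjusted p = 0.142). *Npr1* (chr3:90356458-90373748, minus strand) had 15.2, 14.6, 14.2, 15.9 and 13.3 CPM in MLPKO and 13.9, 16.6, 17.8, 15.9 and 15.3 CPM in MLPKO-cRADΔ/Δ, with a log2 fold change of 0.12 (standard error 0.08, 95% interval -0.05 to 0.29, edgeR adjusted p = 0.409). It was the only one of the 7 with a value above 0, and its counts were the fewest, 459 to 760 per mouse.

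The log2 ratio of *Npr1*, the signalling receptor, to *Npr3*, the clearance receptor, was -1.34, -2.71, -1.80, -1.28 and -1.97 in MLPKO mice 1 to 5 and -1.63, -1.13, -0.75, -1.01 and -1.47 in MLPKO-cRADΔ/Δ mice 1 to 5. These are ratios of CPM, which take no account of exon length, and they were below 0 in every mouse. Per kilobase of exon, *Npr1* lay below *Npr3* in 9 mice but not in MLPKO-cRADΔ/Δ mouse 3, which had 2.46 CPM of *Npr1* and 2.40 CPM of *Npr3*. The mean was -1.82 ± 0.58 (SD, n = 5) in MLPKO and -1.20 ± 0.35 in MLPKO-cRADΔ/Δ, a difference of 0.62 (two-sided exact permutation test, p = 0.0714, adjusted p = 0.202). It was 0.40 without MLPKO mouse 2. Endothelial cells, which carry *Npr1*, have markers whose mean log2 level was 0.18 higher in MLPKO-cRADΔ/Δ (exact permutation p = 0.00794, the smallest that 5 against 5 can give, adjusted p = 0.0357 over 9 marker lists). The sum of the 6 markers was 696 to 817 CPM in MLPKO and 825 to 955 CPM in MLPKO-cRADΔ/Δ, with none of them near 0, and its part in the receptor values was not tested. The 6 ventricular cardiomyocyte markers were lower by 0.26 in mean log2 level in MLPKO-cRADΔ/Δ (adjusted p = 0.0357), with sums of 54050 to 63490 CPM in MLPKO and 40980 to 53560 CPM in MLPKO-cRADΔ/Δ. Neither marker difference passed the adjusted threshold when some single mice were left out, nor when the median of the list took the place of its mean (-0.222 and 0.227, adjusted p = 0.0714 for both). The summed endocardial markers were 67.2 to 82.4 CPM and 71.3 to 85.3 CPM, and the summed fibroblast markers 1088 to 1623 CPM and 944 to 1649 CPM, in MLPKO and MLPKO-cRADΔ/Δ (adjusted p = 0.554 and 0.913). Macrophage markers summed to 85.4 to 123 CPM and 107 to 182 CPM, with a difference in mean log2 level of 0.50 (exact permutation adjusted p = 0.0714), and adipocyte and skeletal muscle markers both had an adjusted p of 0.913. Mural cell markers summed to 493 to 676 CPM in MLPKO and 651 to 870 CPM in MLPKO-cRADΔ/Δ, with 2 of the 5 tested called higher by edgeR, where 0.944% of all genes were. Their mean log2 difference of 0.14 (exact permutation adjusted p = 0.843) includes the nearly uncounted *Tagln*. The fibroblast, endothelial and endocardial lists also had 1 marker each called higher, and the ventricular cardiomyocyte list 1 called lower, where 1.8% of all genes were.

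**Figure D3:**
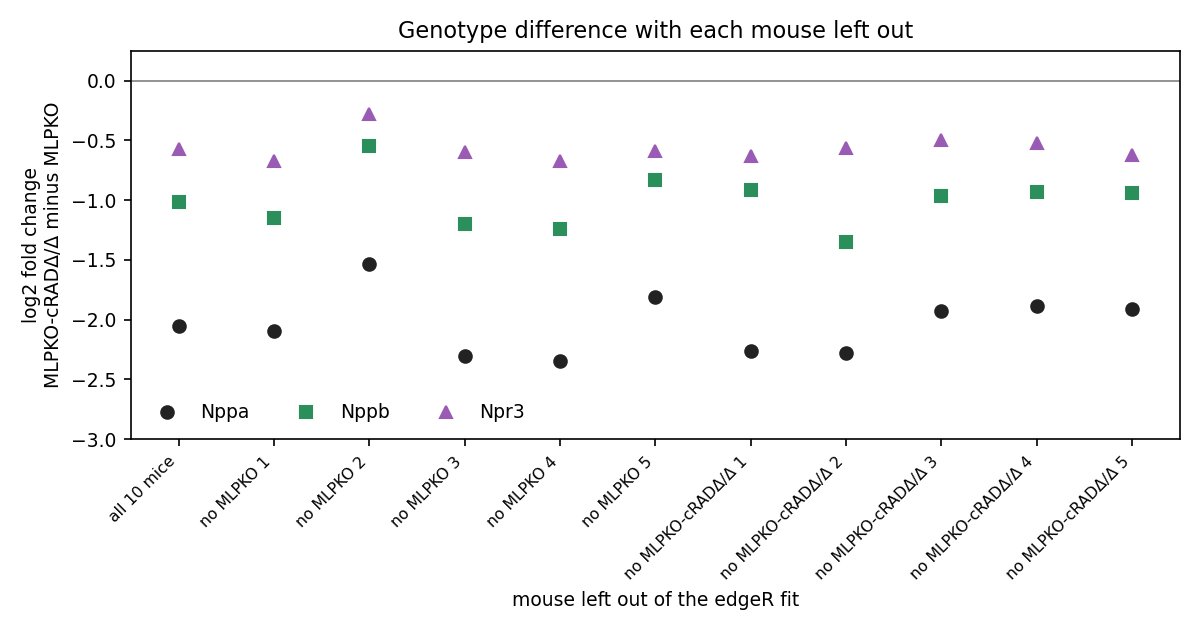
Log2 fold change (MLPKO-cRADΔ/Δ minus MLPKO) of *Nppa*, *Nppb* and *Npr3* from edgeR fits on all 10 mice and with each mouse left out. All values are below 0, and those without MLPKO mouse 2, -1.53, -0.55 and -0.28, are the closest to it.

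Across the 10 mice, *Nppa* and *Nppb* went together. Pearson's r of log2 CPM was 0.891 (permutation p = 0.00145, adjusted p = 0.0304 over 21 pairs of the 7 genes) and Spearman's rho was 0.867 (permutation p = 0.00216, adjusted p = 0.0227). With the genotype means removed, r was 0.864. With 1 mouse left out, r stayed between 0.828 and 0.941, but the adjusted p passed 0.05 without MLPKO mouse 2, 4 or 5 or MLPKO-cRADΔ/Δ mouse 4 (exact permutation, 0.0505 to 0.126). Without MLPKO mice 2 and 5, the 2 farthest from the median of *Nppa*, r was 0.637. Leaving out the most extreme values of a gene narrows its range and can lower r by itself, here and in the pairs below. *Nppa* and *Furin* had an r of 0.818 (permutation p = 0.00325, adjusted p = 0.0341) and a rho of 0.818 (permutation p = 0.00599, adjusted p = 0.0419), which dropped to an r of 0.493 without the same mice. This call was lost without MLPKO mouse 2, 4 or 5 or MLPKO-cRADΔ/Δ mouse 2, 4 or 5 (exact permutation, adjusted p of 0.0538 to 0.221). MLPKO mice 2 and 5 were the highest in both.

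The ranks of *Npr1* and *Npr3* ran in opposite directions, with a rho of -0.891 (permutation p = 0.00129, adjusted p = 0.0227), while r was -0.626 (permutation p = 0.05, adjusted p = 0.112). With the genotype means removed, r was -0.485. Whether the call by rho holds with single mice left out was not tested. The *Npr3* value of MLPKO mouse 2 lay off the line of the other mice. No other of the 21 pairs had an adjusted p under 0.05 by either measure. The relation of *Npr3* to the peptides was weaker, with an r of 0.711 to *Nppa* (adjusted p = 0.0736) and 0.721 to *Nppb* (adjusted p = 0.0789), and without MLPKO mice 2 and 5 these were 0.179 and -0.136. *Npr2* had an r of 0.177 to *Nppa* and 0.036 to *Nppb* (adjusted p = 0.652 and 0.921).

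**Figure D4:**
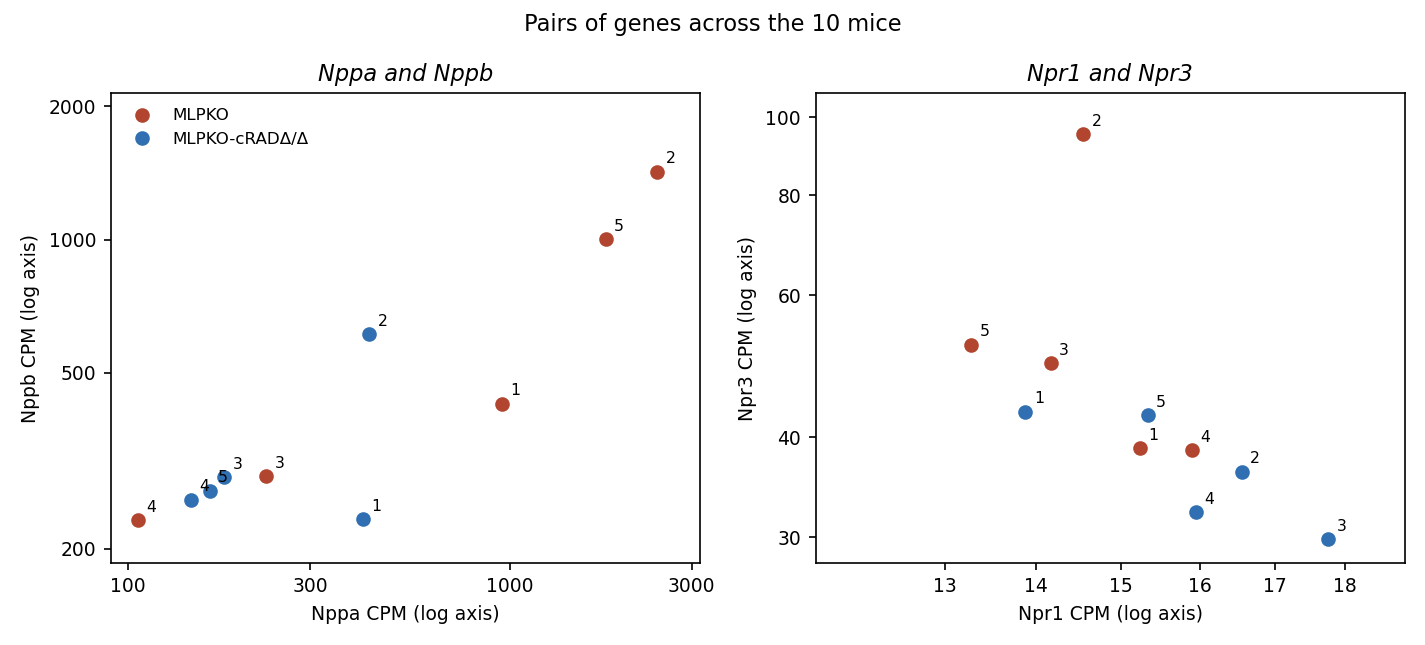
CPM of *Nppb* against *Nppa* (left) and of *Npr3* against *Npr1* (right) in the 10 mice, on log axes, with the mouse number beside each point, MLPKO in red and MLPKO-cRADΔ/Δ in blue. MLPKO mice 2 and 5 hold the upper right of the left plot, and MLPKO mouse 2 stands above the falling band of the right plot.

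Many other genes shared the mouse-to-mouse pattern of the peptides. Of 13444 other genes, 118 had an r above 0.9 with *Nppa* and 82 with *Nppb*, against 5 for *Corin*, 24 for *Furin*, 3 for *Npr1*, 7 for *Npr2* and 46 for *Npr3*. These are descriptions over 10 libraries that all the genes share. The 5 closest to *Nppa* were *P4ha1*, a subunit of the collagen prolyl hydroxylase (r = 0.993), *Pdgfc*, a platelet-derived growth factor (0.982), *Ckap4* (0.980), *Arhgef12* (0.976), and *Wdr1*, an actin disassembly factor (0.968). *P4ha1* ranged from 81.2 to 203 CPM in MLPKO and from 88.7 to 118 CPM in MLPKO-cRADΔ/Δ, a much narrower range than that of *Nppa*. The 5 closest to *Nppb* were *Picalm*, a clathrin assembly protein (r = 0.972), *Tnfrsf12a*, the receptor of the cytokine TWEAK (0.971), *Xk* (0.967), *Dipk2a* (0.966) and *Xirp1*, an actin-binding protein of the intercalated disc (0.961). *Xirp1* ranged from 353 to 1430 CPM in MLPKO and from 295 to 509 CPM in MLPKO-cRADΔ/Δ. None of these 10 genes was called between the genotypes, where 2.74% of all genes were, with edgeR adjusted p values of 0.134 to 0.341.

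For the other members, the closest genes were *Nfe2l1*, *Jade2* and *Popdc1* for *Corin* (r of 0.923 to 0.938), *Hip1*, *Grk3* and *Cdk19* for *Furin* (0.943 to 0.955), *Gid4*, *Cad* and *Cdc45* for *Npr1* (0.901 to 0.923), *Hmgn2*, *Ckap5* and *Tm9sf2* for *Npr2* (0.925 to 0.944) and *Src*, *Srgap3* and *Chmp2a* for *Npr3* (0.944 to 0.949). *Src*, a tyrosine kinase, ranged from 5.29 to 15.2 CPM in MLPKO and from 5.14 to 6.24 CPM in MLPKO-cRADΔ/Δ. None of these 15 genes was called by edgeR, where 2.74% of all genes were.

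The protein-coding genes described here within 100 kb of *Nppa* and *Nppb* had values much closer to 0. *Mfn2*, which encodes a mitochondrial fusion protein, had 1031 ± 53.9 CPM in MLPKO and 944 ± 40.6 CPM in MLPKO-cRADΔ/Δ (SD, n = 5), and its log2 fold change was -0.13 with a standard error of 0.06 (edgeR adjusted p = 0.235). Values were 0.01 for *Plod1*, 0.05 for *2510039O18Rik*, -0.005 for *Clcn6* and -0.14 for *Agtrap*, with standard errors of 0.08 to 0.11 and adjusted p values of 0.349 to 0.978. The value of *2510039O18Rik* comes from the fit that kept predicted genes. *Draxin* had at most 14 counts and was not tested. *Clcn6*, the next gene after *Nppa*, had 14.4 ± 1.10 CPM in MLPKO and 14.4 ± 1.40 CPM in MLPKO-cRADΔ/Δ.

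**Figure D5:**
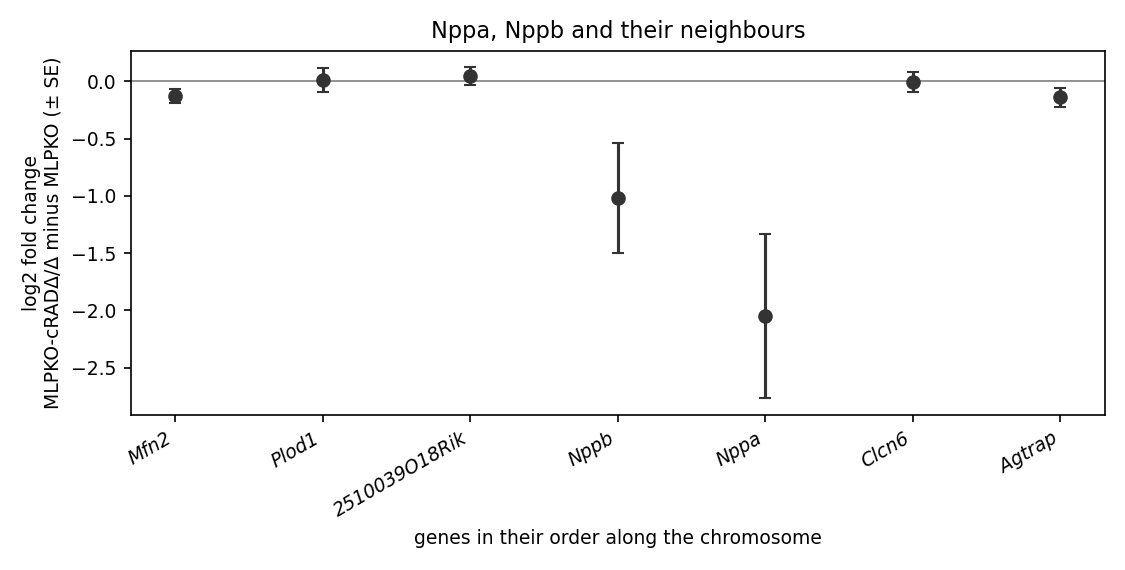
Log2 fold change (MLPKO-cRADΔ/Δ minus MLPKO) with its standard error for *Nppa*, *Nppb* and 5 tested protein-coding genes within 100 kb, in their order along the chromosome. The neighbours lie between -0.14 and 0.05, while *Nppb* is at -1.02 and *Nppa* at -2.05.

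Among the genes of peptide storage, *Pam*, an amidating enzyme that is abundant in the membrane of atrial secretory granules, fell. It had 1293, 1655, 1204, 1121 and 1583 CPM in MLPKO mice 1 to 5 and 822, 730, 842, 715 and 891 CPM in MLPKO-cRADΔ/Δ mice 1 to 5. The groups did not overlap, which held for 6.62% of all genes, and the log2 fold change was -0.78 (standard error 0.12, edgeR adjusted p = 0.0136). It stayed past the threshold whichever of the 10 mice was dropped, with adjusted p values of 0.00814 to 0.0410. Of the 7 genes of the granule list only *Pam* and *Cpe* were tested, and edgeR and DESeq2 both called *Pam* alone, where they called 2.74% and 9.65% of all genes. *Cpe*, a carboxypeptidase that trims peptide hormones, had 334 ± 17.1 CPM in MLPKO and 281 ± 39.04 CPM in MLPKO-cRADΔ/Δ (SD, n = 5), and its log2 fold change was -0.25 with a standard error of 0.09 (edgeR adjusted p = 0.138). The granins *Chga* and *Scg2* had no count in any mouse, *Chgb* had 4 to 20 counts and *Cadps* 0 to 6.

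Of the 23 genes of the cyclic GMP pathway, which carries the signal of NPR-A and NPR-B, 20 were tested, and edgeR called 1 lower and none higher, where it called 2.74% of all genes. The list had 5 genes with an unadjusted p under 0.05, where 21.6% of all genes did, and its median log2 fold change was 0.10 where that of all genes was 0.01. DESeq2 called 3, where it called 9.65% of all genes. The gene called by both was *Pde11a*, a phosphodiesterase that breaks down cyclic GMP and cyclic AMP, with 1.87, 1.08, 6.02, 4.56 and 2.45 CPM in MLPKO mice 1 to 5 and 0.24, 0.54, 0.33, 0.20 and 0.63 CPM in MLPKO-cRADΔ/Δ mice 1 to 5. Its counts were few, from 8 to 305 per mouse, and its log2 fold change was -3.02 (standard error 0.49, edgeR adjusted p = 0.0173). The groups did not overlap, which held for 6.62% of all genes. The order of *Pde11a* among MLPKO mice was another than that of *Nppa*, with mouse 2 the lowest. The others that DESeq2 called, picked after their values were seen, had values above 0. *Rgs2*, a regulator of G protein signalling that the cyclic GMP-dependent kinase activates, had a log2 fold change of 0.92 (edgeR adjusted p = 0.0544, DESeq2 adjusted p = 0.00199), and *Gucy1a1*, a subunit of the soluble guanylate cyclase, of 0.33 (edgeR adjusted p = 0.0681, DESeq2 adjusted p = 0.0219). *Pln*, phospholamban, a target of the cyclic GMP-dependent kinase, had a log2 fold change of -0.11 (adjusted p = 0.562), *Pde3a* of -0.08 (adjusted p = 0.625) and *Prkg1*, the kinase itself, of -0.21 (edgeR adjusted p = 0.382).

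Of the 8 genes for other ligands, processing and the breakdown of the peptides, 6 were tested (median log2 fold change 0.13). None was called by edgeR, where 2.74% of all genes were. An unadjusted p under 0.05 was found for 3 of them, where 21.6% of all genes had one, and DESeq2 called *Ide* and *Pcsk6*, where it called 9.65% of all genes. *Nppc*, the gene of C-type natriuretic peptide, had at most 4 counts, and *Ostn*, the gene of musclin, a ligand of NPR-C, at most 15. *Ide*, insulin-degrading enzyme, which also cleaves ANP, had a log2 fold change of -0.22 (edgeR adjusted p = 0.0800, DESeq2 adjusted p = 0.0261). The proprotein convertases *Pcsk6*, which activates corin, and *Pcsk7* had log2 fold changes of 0.55 and 0.19 (edgeR adjusted p = 0.0609 and 0.172). *Pcsk6* had 30.4 to 50.6 CPM in MLPKO and 44.9 to 62.0 CPM in MLPKO-cRADΔ/Δ, with its value in MLPKO mouse 4, 50.6 CPM, among those of MLPKO-cRADΔ/Δ. Of the 10 fits with 1 mouse left out, only that without MLPKO mouse 4 called *Pcsk6* (edgeR adjusted p = 0.0145), and the largest adjusted p was 0.135. The fit without MLPKO mouse 4 called 826 of all genes, where that on all mice called 369.

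None of the 12 genes for transcription factors and cofactors that regulate *Nppa* and *Nppb* (all tested, median log2 fold change -0.08) was called by edgeR, where 2.74% of all genes were. An unadjusted p under 0.05 was found for 5 of them, where 21.6% of all genes had one, and DESeq2 called *Gata4*, *Tbx5*, *Tbx20* and *Mef2c*, where it called 9.65% of all genes. *Tbx5* and *Mef2c* are named for that call only. *Tbx20* had a log2 fold change of -0.36 (adjusted p = 0.0969), *Mef2d* of -0.08 (adjusted p = 0.497) and *Mef2a* of 0.10 (edgeR adjusted p = 0.617). *Gata4*, picked after its values were seen, had 201, 213, 152, 171 and 165 CPM in MLPKO mice 1 to 5 and 132, 140, 128, 150 and 146 CPM in MLPKO-cRADΔ/Δ mice 1 to 5. The groups did not overlap, which held for 6.62% of all genes, and the log2 fold change was -0.37 (standard error 0.09, edgeR adjusted p = 0.0556, DESeq2 adjusted p = 0.00588). Within MLPKO, mouse 2 was the highest in both *Gata4* and *Nppa*, while mouse 5, the second in *Nppa*, was the fourth in *Gata4*. The relation of *Gata4* to *Nppa* was not tested.

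The foetal programme is the set of genes that the stressed ventricle shares with the embryonic heart, and the study itself picked out several of its genes in these samples, so that their direction is no independent evidence. Of 9 genes besides the peptides, 8 were tested, 4 were called lower by edgeR and none higher, where 1.8% of all genes were called lower, and the median log2 fold change was -0.77. The count was 1 with robust dispersion and between 1 and 4 with 1 mouse left out. *Myh7*, the slow myosin heavy chain, fell by 1.23 on the log2 scale (edgeR adjusted p = 0.0104), and it too stayed past the threshold whichever mouse was dropped. *Acta1*, skeletal muscle actin, *Ankrd1*, a stretch-responsive cofactor, and *Xirp2*, an actin-binding protein, fell by 1.52, 1.27 and 2.04 (edgeR adjusted p = 0.0492, 0.0463 and 0.0324), but were called in only 2, 3 and 4 of the 10 fits with 1 mouse dropped. *Myh7* and *Nppa* can be set side by side: *Myh7* had 770 to 1342 CPM in MLPKO and 340 to 499 CPM in MLPKO-cRADΔ/Δ. Its groups did not overlap, which held for 6.62% of all genes. MLPKO mice 3 and 4 had 770 and 818 CPM of *Myh7* but only 230 and 106 CPM of *Nppa*. The channel genes *Cacna1g*, *Hcn4* and *Hcn2* had log2 fold changes of -0.30, 0.11 and 0.64 (edgeR adjusted p = 0.456, 0.854 and 0.260).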

How the data were processed

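RNA of 10 mice (5 per genotype, 1 library each) was enriched for polyadenylated transcripts and sequenced. Per the labels, STAR was the aligner, GRCm39 the genome and featureCounts the counter, and the table that the authors deposited holds raw counts. Settings for strand, read pairs and shared reads are not given in the sources used here. From 1 to 20 counts, 73.7% to 80.3% of values per library were even. Of 60676 genes, 3491 held no value in the table. Gene names, places and exon lengths are those of GENCODE M39.

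Following the study's methods, a gene had to exceed 10 counts in 6 or more mice, and predicted genes (Gm or Rik) were dropped. The main test was edgeR's quasi-likelihood test (version 4.0.16, under R 4.3.3, TMM, genotype as the only term), with intervals of 95%. Genes were called at an adjusted p under 0.05. The script was tested on simulated counts. DESeq2 1.42.0, limma-voom (limma 3.58.1), other scalings and filters, a term for the mouse number and leaving out each mouse were alternatives. Ratios and marker lists were compared with two-sided exact permutation tests, and pairs of genes with 100000 resamples (log2 CPM, prior count 2). For pairs with 1 mouse left out, all permutations were used. These tests were written in numpy 2.4.6, with ranks from scipy 1.17.1. The mice are separate animals. The 7 genes and all lists were chosen with earlier results of these data known. Named genes are the 7, each pathway gene called and up to 3 others per list with the highest mean count, protein-coding genes within 100 kb of *Nppa* or *Nppb*, and the genes closest by r. A gene within that distance is not reported here.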

Additional observations from a re-analysis of the deposited data

Results flagged for a closer look

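In 20 groups of 5 mice (the 7 genes and 3 ratio or share measures in each genotype), 3 held a mouse whose gap to its nearest neighbour took up more than 0.71 of the range of its group. For independent, normally distributed values, about 1 in 20 groups would. The gene values are CPM on a linear scale and the groups share mice and counts, so that rate may not hold here. *Nppb* in MLPKO-cRADΔ/Δ mouse 2 was 611 CPM, where the other 4 mice had 234 to 291 CPM. *Npr3* in MLPKO mouse 2 was 95.2 CPM, where the others had 38.5 to 52.1 CPM, and this is the mouse farthest out on the first principal component. The log2 ratio of *Nppa* to *Nppb* in MLPKO-cRADΔ/Δ mouse 1 was 0.82 (0.821), where the others had -0.82 to -0.51, and this mouse had the highest counts of the atrial genes *Myl7*, *Myl4* and *Sln*. The other atrial markers, *Dkk3*, *Stard10* and *Bmp10*, had their highest counts in MLPKO mice. The part of these features in the values was not tested.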

How the results depend on the processing

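The direction of *Nppa*, *Nppb*, *Npr1*, *Npr2* and *Npr3* was kept in all 21 alternatives, and only *Nppa* without MLPKO mouse 4 was called in any. The log2 fold change of *Furin* was 0.013 with library size alone and 0.044 without MLPKO mouse 2 and MLPKO-cRADΔ/Δ mouse 3 together, a setting chosen after seeing the data, in which *Corin* was at 0.041. With 1 mouse left out it lay between -0.107 and 0.036 for *Furin*, -2.34 and -1.53 for *Nppa*, -1.35 and -0.55 for *Nppb*, and -0.68 and -0.28 for *Npr3*. The genes called over the whole table were 369, against 1298 with DESeq2, 159 without the 2 mice and 50 to 826 with 1 mouse left out. Of the 21 pairs, 2 passed by Pearson's r, and 0 to 6 with 1 mouse left out. The cause of these moves was not tested, and fewer mice were fitted in the latter.

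By the median in place of the mean of a list, the difference in atrial markers was -0.174 and in endocardial markers -0.408, both opposite in sign. With 1 mouse left out it lay between -0.282 and 0.193 for atrial, -0.0356 and 0.165 for fibroblast, -0.142 and 0.133 for skeletal muscle, and -0.153 and 1.37 for adipocyte markers. The ventricular and endothelial differences then lay at -0.286 to -0.206 and 0.128 to 0.203.

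Mouse numbers are shared by the genotypes but name different animals. The correlation of same-numbered mice, with genotype means removed, was between -0.0423 and 0.152, and 2 of 5 matched their own number best. With the number as a replicate block, the log2 fold change was -1.40 for *Nppa* and -0.76 for *Nppb* (edgeR adjusted p = 0.183 and 0.166), no member was called, and 281 genes were called in all. limma-voom gave -1.42 and -0.77. *Npr1*, with 459 to 760 counts per mouse, is the least precisely counted of the 7.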
